A study of Mus musculus with 18 samples.

Results

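NF-κB target genes of survival and adhesion were followed through mouse ovarian cancer cells and tumors that carried or lacked the label Cd276KO. The set held 10 genes of the 54752 in the count table: Birc3, Tnfaip3, Tnip1, Traf1, Ier3, Sod2, Tnfaip2, Icam1, Vcam1 and Ptgs2. They were chosen by name as known NF-κB targets, with earlier results of these data known, so their shares beside all genes are descriptions. All 10 passed the filter on low counts in every comparison. Cd276 encodes the immune checkpoint molecule B7-H3. Sequencing covered 18 RNA libraries, 3 for each of 6 kinds of sample. These were HM-1 cells in culture (strain label B6C3F1, MEM alpha medium), as controls and as cells labelled Cd276KO, ID8 cells in culture (strain label C57BL6, RPMI 1640 medium), as controls and as cells labelled Cd276KO, and tumors grown from HM-1 control cells or from HM-1 cells labelled Cd276KO. Tumors grew in the skin of B6C3F1 mice after intradermal injection and were taken on day 10. HM-1 and ID8 are mouse ovarian cancer lines. Replicates are called biological in the labels, with no word on the number of clones, cultures or mice or on how Cd276 was targeted. The p-values therefore rest on the spread between libraries, which may in part be technical.

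NF-κB is a family of dimeric transcription factors that inhibitory IκB proteins hold in the cytoplasm. Signals such as TNF, IL-1 and Toll-like receptor ligands activate the IκB kinase complex, the inhibitors are degraded, and the dimers enter the nucleus and bind short κB sites near their target genes. Some targets limit cell death (Birc3, Traf1, Ier3, Sod2), some shut the signal down again (Tnfaip3, Tnip1), and others change how a cell touches its neighbours or calls in leukocytes (Icam1, Vcam1, Tnfaip2, Ptgs2). In ovarian cancer the pathway is known for its links to inflammation, cell survival and spread in the abdominal cavity.

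The promoter sequences show what the start regions of these genes hold in common and where they differ. RefSeq entries of build GRCm38.p6 covered 9 of the 10 genes in 10 windows of 300 bases (250 before to 50 after the start), with 2 windows for Tnfaip3 and none for Vcam1. Each window was searched on both strands for the degenerate 10-base κB consensus and for the 9-base form GGAANTTCC, where N is any base. Both forms equal their own reverse complement and can overlap each other, and both were picked after these promoters had been read. At least 1 match was found in 6 of the 10 windows, compared with 11.6% of all 32851 windows of the same length. For the 10-base consensus alone the numbers were 5 of 10 windows and 11.2% of all windows, and for GGAANTTCC they were 3 of 10 and 0.928%. Shown are Birc3, which had the largest fall under the Cd276KO label in HM-1 cells and in tumors, Tnfaip3 and Tnip1, which fell in both cell lines, Icam1, which rose in both, and Ier3, which moved in opposite directions. Capitals mark matches, and each sequence runs 5′ to 3′ on the strand of the gene.
Birc3 (chr9:7873121-7873420, minus strand): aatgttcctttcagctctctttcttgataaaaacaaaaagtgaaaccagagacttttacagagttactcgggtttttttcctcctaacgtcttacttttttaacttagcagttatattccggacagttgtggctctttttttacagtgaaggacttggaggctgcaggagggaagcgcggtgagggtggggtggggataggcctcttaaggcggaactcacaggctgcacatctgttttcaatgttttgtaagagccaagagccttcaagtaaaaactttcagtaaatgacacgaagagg
Tnfaip3 (chr10:19015361-19015660, minus strand): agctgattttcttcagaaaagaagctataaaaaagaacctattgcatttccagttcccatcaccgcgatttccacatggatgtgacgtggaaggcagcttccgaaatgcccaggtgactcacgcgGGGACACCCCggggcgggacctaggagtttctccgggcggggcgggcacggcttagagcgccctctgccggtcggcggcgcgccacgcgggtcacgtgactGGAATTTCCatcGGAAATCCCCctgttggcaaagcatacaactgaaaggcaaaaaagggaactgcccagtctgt
Tnip1 (chr11:54962891-54963190, minus strand): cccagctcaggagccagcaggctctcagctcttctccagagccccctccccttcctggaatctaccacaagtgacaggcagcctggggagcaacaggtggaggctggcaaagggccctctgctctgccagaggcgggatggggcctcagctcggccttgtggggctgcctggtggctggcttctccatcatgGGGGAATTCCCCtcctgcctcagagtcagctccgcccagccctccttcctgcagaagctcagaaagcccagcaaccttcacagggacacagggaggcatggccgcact
Icam1 (chr9:21015690-21015989, plus strand): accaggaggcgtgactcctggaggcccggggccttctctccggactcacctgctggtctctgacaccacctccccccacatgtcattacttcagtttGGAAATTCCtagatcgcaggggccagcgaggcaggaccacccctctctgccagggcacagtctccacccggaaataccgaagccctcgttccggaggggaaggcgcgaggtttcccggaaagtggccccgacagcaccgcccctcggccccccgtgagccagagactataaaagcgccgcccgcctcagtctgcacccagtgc
Ier3 (chr17:35821463-35821762, plus strand): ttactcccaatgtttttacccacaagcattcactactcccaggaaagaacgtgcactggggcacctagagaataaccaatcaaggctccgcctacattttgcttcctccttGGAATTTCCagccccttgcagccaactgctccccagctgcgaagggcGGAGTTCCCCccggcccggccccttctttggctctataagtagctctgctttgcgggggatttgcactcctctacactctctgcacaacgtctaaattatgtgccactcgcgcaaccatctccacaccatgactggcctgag

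The Tnfaip3 window held 3 matches, with GGGACACCCC at bases -125 to -116, GGAATTTCC at bases -24 to -16 and GGAAATCCCC at bases -12 to -3, counted from the start. In Tnip1 the 3 matches overlapped in 1 palindromic run from base -58 to base -47. Icam1 had 1 match at bases -153 to -145, and Ier3 had one at -139 to -131 and another at -92 to -83. Windows of Birc3, Traf1 and Ptgs2 and the second Tnfaip3 window held neither form, and Tnfaip2 and Sod2 held 1 match each. A match is a description of letters, and its absence says only that these letters are not in this window.

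Before the members, the label and the libraries were checked. Levels are given as CPM, the reads of a gene scaled to the same library total. Cd276 was 86.4 ± 10.6 CPM (mean ± SD, n = 3) in HM-1 controls and 46.6 ± 1.53 in HM-1 cells labelled Cd276KO, a fall of 0.85 on the log2 scale (adjusted p = 0.00146). In ID8 it was 20.9 ± 0.299 and 19.4 ± 1.45 CPM, which was not a called difference (adjusted p = 0.692), and in tumors 121.7 ± 18.1 and 86.6 ± 12.3 (adjusted p = 0.105). Counts over a whole gene do not show whether it is disrupted, so these libraries are named by their label throughout. HM-1 control library 1 stood apart from controls 2 and 3 (chi-square per gene 71.3 and 69.9, against 1.62 between the other two), and control tumor 3 stood apart from control tumors 1 and 2 (149 and 90.5, against 45.4). Depth was 17349082 to 30959773 counts per library. In the cultures 9 of 10 epithelial and ovarian markers had any reads in HM-1 controls and 10 of 10 in ID8 controls. Only 4 and 7 of them averaged 1 CPM or more. In labelled HM-1 cultures 8 of 10 had any reads and 4 averaged 1 CPM or more. Epcam was at 0 counts in every HM-1 culture, and Pax8 was at 0 in the labelled ones.

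The label Cd276KO went with lower levels of most of the 10 genes in both cell lines, with Icam1 higher in each. In HM-1 cells 2 genes rose (Tnfaip2 and Icam1) and 6 fell (Birc3, Tnfaip3, Vcam1, Traf1, Tnip1 and Ier3), where 27.7% of all 12457 genes tested were called, 11.6% higher and 16.1% lower. A gene is called where the adjusted p of edgeR's quasi-likelihood test is under 0.05. In ID8 cells 2 rose (Icam1 and Ier3) and 6 fell (Birc3, Tnfaip3, Tnfaip2, Traf1, Tnip1 and Ptgs2), where the background was much higher, with 60.7% of 12932 genes called, 29.4% higher and 31.3% lower. In tumors 2 fell (Birc3 and Tnfaip3), where 5.38% of 15345 genes were called, 2.2% higher and 3.18% lower. In this edgeR fit to the tumor libraries alone none of the 10 rose. It gave an unadjusted p under 0.05 for 7 of the 10, beside 25.0% of all genes tested. DESeq2 called 5 of the 10, beside 13.2% of 17177 genes. The edgeR fit over all 18 libraries called 9 of the 10 in tumors, beside 4001 of 16526 genes. Among these 9, Tnfaip2, Icam1 and Vcam1 were higher with the label (adjusted p = 0.0151, 0.0291 and 0.00797). Median log2 fold changes over the 10 genes were -0.43, -0.22 and -0.56 in HM-1 cells, ID8 cells and tumors, beside -0.01, -0.01 and -0.03 over all genes tested.

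Values of labelled and control libraries did not overlap for 8 of the 10 genes in HM-1 cells (2 higher and 6 lower, where 53.0% of all genes tested did not overlap, 22.5% higher and 30.5% lower), for 8 in ID8 cells (2 higher and 6 lower, with 64.3%, 25.1% and 39.2%) and for 8 in tumors (2 higher and 6 lower, with 34.8%, 14.2% and 20.6%). The size of the label's effect differed between tumors and HM-1 culture for 2 of 10 genes, Birc3 and Vcam1, both with a positive difference, where 2.84% of 15623 genes were called, 1.72% positive and 1.12% negative. Between ID8 and HM-1 cells it differed for 5 of 10, with 3 positive and 2 negative differences, where 40.4% of 14208 genes were called, 19.8% positive and 20.7% negative. The HM-1 comparisons in culture and in tumors share no library, while each of these tests of a difference shares libraries with the comparisons it is made from. Both HM-1 comparisons do set HM-1 cells labelled Cd276KO against HM-1 control cells, and the number of clones is not given. They may therefore not be independent repeats of the label's effect.

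**Figure D1:**
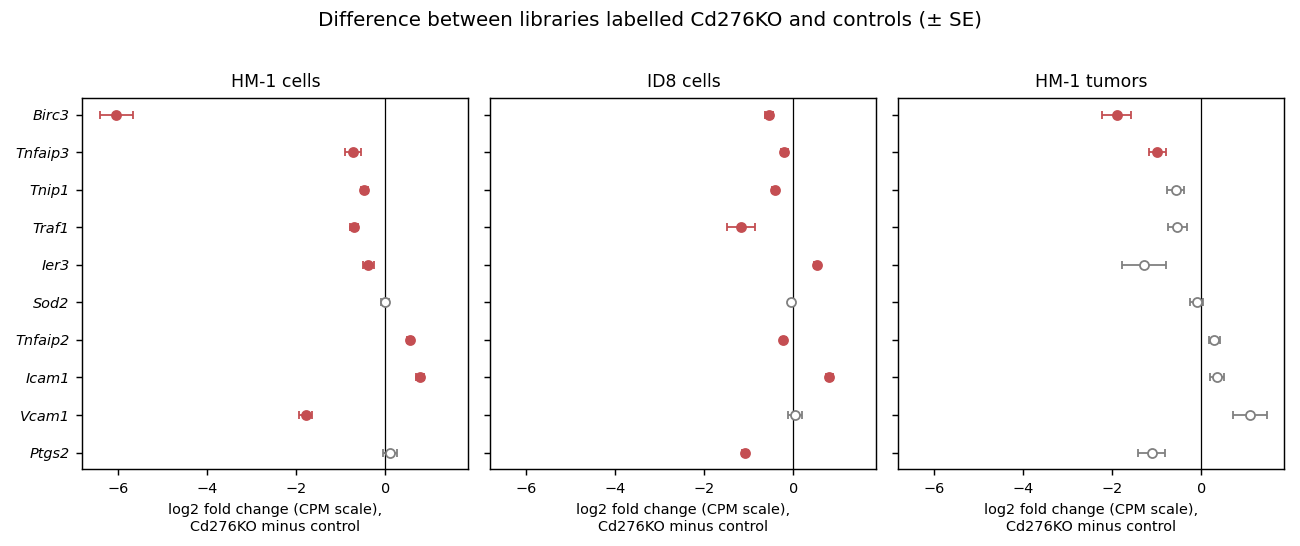
Log2 fold change of each gene, samples labelled Cd276KO minus controls, in HM-1 cells, ID8 cells and HM-1 tumors (3 panels, 1 horizontal axis scale). Points are fitted values with bars of ± SE, red and filled where the adjusted p was under 0.05, open where not. Birc3 and Tnfaip3 lie left of 0 and are called in all 3 panels, Icam1 is called right of 0 in both lines, and Vcam1 lies at -1.79 in HM-1 cells and at 1.08 in tumors.

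Birc3 encodes cIAP2, a ubiquitin ligase that TRAF proteins bring to TNF receptors and that protects cells from TNF-induced death (ENSMUSG00000032000.17, chr9:7848699-7873186 in GRCm38). It showed the largest difference of the 10 genes in HM-1 cells. Control cultures held 7.09, 6.98 and 7.35 CPM, and cultures labelled Cd276KO held 0.143, 0 and 0.155 CPM. All 3 controls were high and alike, and the 3 labelled libraries were at or next to 0. In counts this was 476 reads against 6, a ratio of 71.2 (95% exact interval 32.5 to 195, counting error only). The fitted log2 fold change was -6.03 (SE 0.37, adjusted p = 0.000102). With 6 reads left, the level in labelled HM-1 cultures is close to the limit of this depth.

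In ID8 cells the Birc3 gap was small beside that of HM-1. Controls were at 15.5, 14.8 and 14.1 CPM and cells labelled Cd276KO at 9.71, 8.76 and 10.3 CPM, so the groups lay apart, and Birc3 fell by 0.55 (SE 0.09, adjusted p = 2.44e-05). The fit over all 18 libraries gave adjusted p = 0.139 for this difference. The interaction term, which tests whether the label had a different effect in the 2 lines, was 5.48 (SE 0.33, adjusted p = 7.32e-08).

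Tumors held more Birc3 than the cultures they came from. Control tumors had 21.3, 16.3 and 24.6 CPM and tumors labelled Cd276KO 3.17, 7.37 and 5.82 CPM, again with no overlap. The gene fell by 1.90 in the labelled tumors (SE 0.33, adjusted p = 0.0335). The call held without control tumor 3 (-1.71, adjusted p = 0.0230) but was lost when any other tumor was left out, with adjusted p = 0.0549 to 0.170, and with the replicate number as a block (adjusted p = 0.113). From culture to tumor Birc3 rose by 1.40 in controls (SE 0.21) and by 5.55 in labelled samples (SE 0.56). The label's effect was thus smaller in tumors than in culture, with an interaction of 4.15 (SE 0.64, adjusted p = 0.00624). In bulk tumor samples, fewer cells of a type and less RNA per cell cannot be told apart, and host cells add their own transcripts.

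The plot of CPM by library shows the 10 genes side by side in all 6 groups, with the near-empty labelled HM-1 cultures in the Birc3 panel and the single high control tumor in the Ier3 panel.

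**Figure D2:**
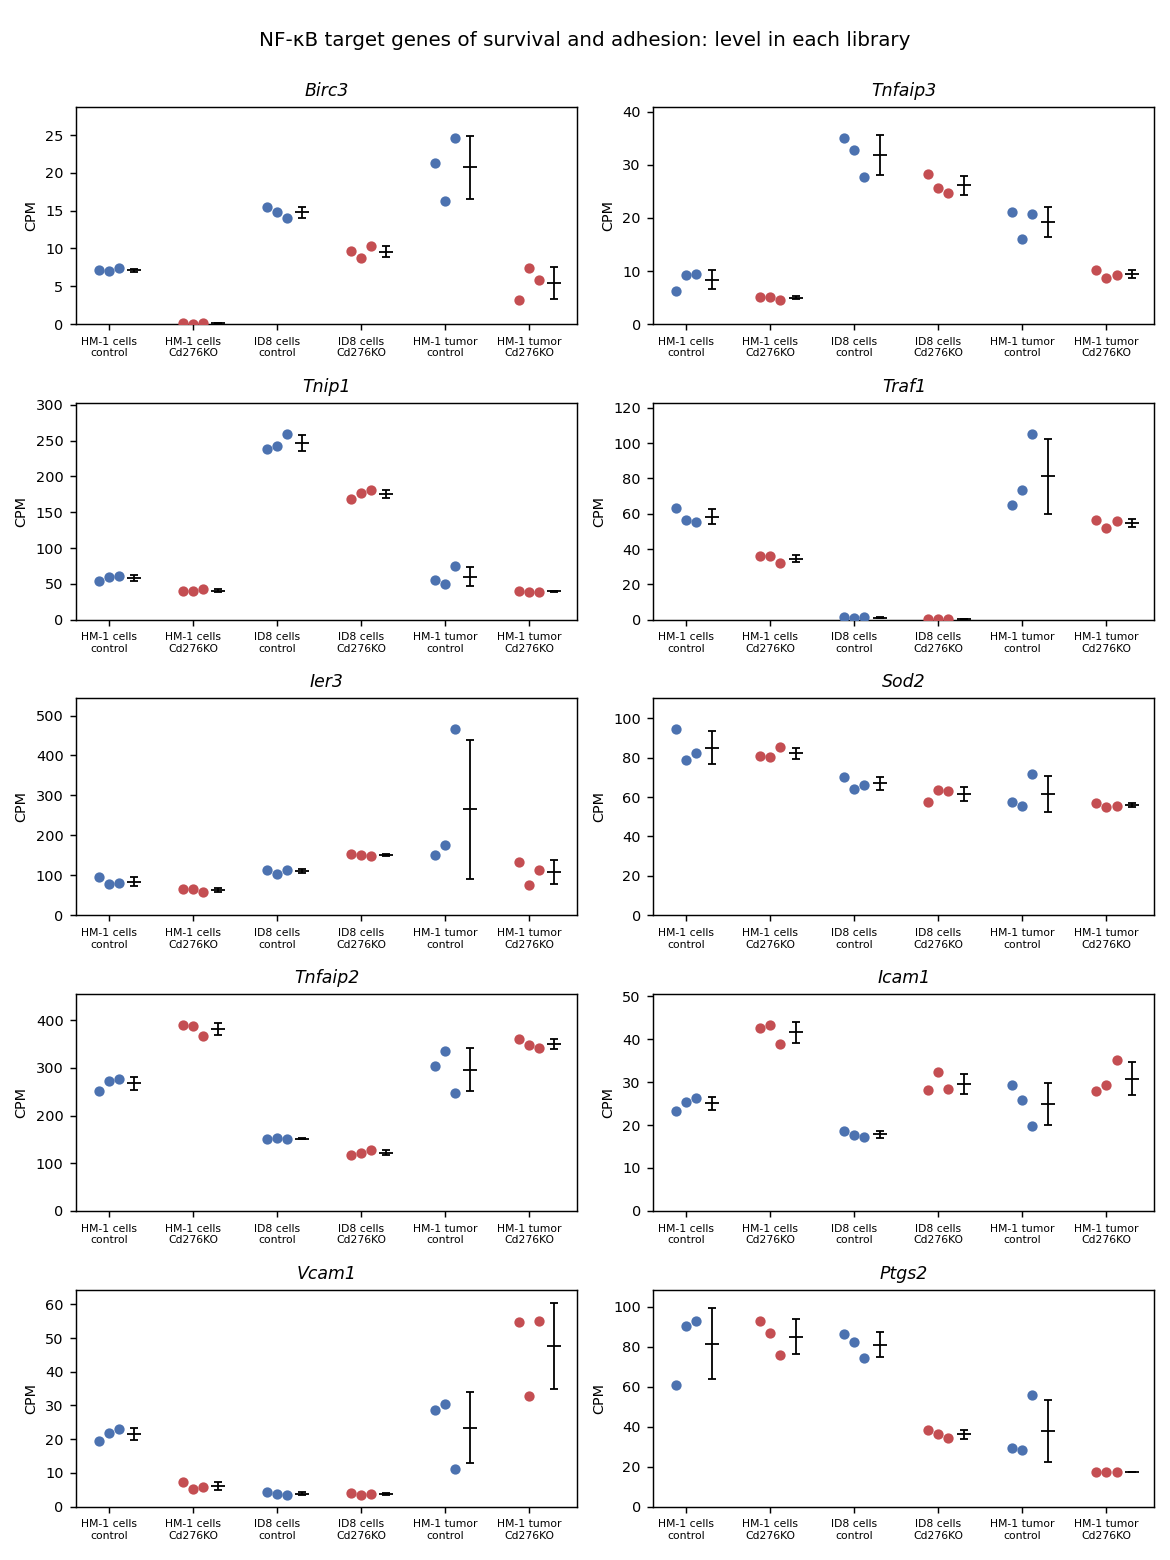
Level of each of the 10 genes in CPM (vertical axis from 0) in each library of the 6 groups on the horizontal axis. Points are libraries (blue control, red labelled Cd276KO), and the bar beside them is the mean ± SD (n = 3). Birc3 drops from about 7.14 to 0.0993 CPM between HM-1 control and labelled cultures, and 1 control tumor reaches 465.5 CPM for Ier3.

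Tnfaip3 encodes A20, an enzyme that edits ubiquitin chains and ends NF-κB signalling (ENSMUSG00000019850.11, chr10:19000910-19015657). HM-1 controls had 6.24, 9.31 and 9.51 CPM, with control 1 the lowest, and labelled cultures had 5.11, 5.07 and 4.59 CPM. All labelled libraries lay under all controls, and Tnfaip3 fell by 0.73 (SE 0.17, adjusted p = 0.0216). Without HM-1 control 1 the change was -0.88 (adjusted p = 3.07e-08), while leaving out any other HM-1 culture raised the adjusted p to between 0.0625 and 0.0914. ID8 controls had 35.1, 32.8 and 27.7 CPM and labelled ID8 cells 28.2, 25.7 and 24.7 CPM. Here the ranges overlapped. The gene fell by 0.21 (SE 0.08, adjusted p = 0.0344), and that call was lost with DESeq2 (adjusted p = 0.0896), in the fit over all 18 libraries (0.364), without ID8 control 1 or 2 (0.221 and 0.0841) and without labelled ID8 library 2 or 3 (0.106 and 0.117).

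In tumors Tnfaip3 was the only other called member. Control tumors had 21.04, 15.9 and 20.7 CPM and labelled tumors 10.2, 8.77 and 9.28 CPM, well apart, and the gene fell by 0.99 (SE 0.19, adjusted p = 0.0389). As for Birc3, the call held without control tumor 3 (-0.89, adjusted p = 0.0291) and was lost without any other tumor (adjusted p = 0.0523 to 0.196) and with the block (0.132). The rise from culture to tumor was 1.07 in controls (SE 0.22) and 0.81 in labelled samples (SE 0.14). ID8 cells held the highest level of all groups, 31.9 ± 3.80 CPM in controls, followed by labelled ID8 cells, control tumors, labelled tumors, HM-1 controls and labelled HM-1 cells. Labelled tumors and HM-1 controls overlapped in that order, as did both ID8 groups.

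Tnip1 encodes ABIN-1, a ubiquitin-binding partner of A20 (ENSMUSG00000020400.17, chr11:54910785-54962917). In HM-1 it went from 53.5, 59.8 and 61.5 CPM in controls to 39.5, 40.4 and 42.4 in labelled cultures. In ID8 it went from 238, 242 and 260 CPM to 169, 176 and 181. Both pairs of groups lay apart, and Tnip1 fell by 0.47 in HM-1 (SE 0.08, adjusted p = 0.00648) and by 0.42 in ID8 (SE 0.06, adjusted p = 1.66e-06). The interaction was 0.05 (SE 0.10, adjusted p = 0.749), so no difference between the lines was detected. Tumors had 55.3, 50.5 and 74.8 CPM as controls and 40.7, 38.3 and 39.3 CPM with the label. The groups lay apart here too, but the log2 fold change of -0.58 (SE 0.19) was not called (adjusted p = 0.122), except in the fit over all 18 libraries (0.00404).

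Traf1 encodes an adaptor that binds cIAP proteins at TNF receptors (ENSMUSG00000026875.14, chr2:34941750-34961772). It was the gene that separated the lines most. HM-1 controls had 63.1, 56.4 and 55.3 CPM and ID8 controls 1.38, 0.840 and 1.29 CPM, a log2 difference of -5.68 for ID8 minus HM-1 (SE 0.19, adjusted p = 1.37e-07). Labelled HM-1 cultures had 35.9, 35.8 and 32.2 CPM and labelled ID8 cultures 0.560, 0.427 and 0.466 CPM, which were 11 to 15 reads per library. The labelled libraries were the lower ones in each line. Traf1 fell by 0.71 in HM-1 (SE 0.09, adjusted p = 0.00238) and by 1.18 in ID8 (SE 0.31, adjusted p = 0.00216). In tumors, 64.7, 73.5 and 105 CPM stood against 56.2, 52.0 and 56.1 CPM, with control tumor 3 the highest. That difference, -0.54 (SE 0.22), was not called (adjusted p = 0.187), and without control tumor 3 it was -0.26 (adjusted p = 0.168). The fit over all 18 libraries did call this tumor difference (adjusted p = 0.0328).

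Ier3 encodes IEX-1, an immediate early protein that modulates apoptosis (ENSMUSG00000003541.6, chr17:35821684-35822923). It changed in opposite directions in the 2 lines. HM-1 controls had 96.5, 77.1 and 79.7 CPM and labelled HM-1 cultures 65.9, 64.9 and 58.4 CPM. ID8 controls had 114, 104 and 112 CPM and labelled ID8 cultures 153, 152 and 148 CPM. Groups lay apart in both lines, lower with the label in HM-1 and higher in ID8. Ier3 fell by 0.38 in HM-1 (SE 0.12, adjusted p = 0.0489) and rose by 0.53 in ID8 (SE 0.06, adjusted p = 3.96e-08), with an interaction of 0.90 (SE 0.13, adjusted p = 0.000124). The HM-1 call was marginal: it was lost with relative log expression scaling (adjusted p = 0.0528), in the fit over all 18 libraries (0.442) and without any HM-1 culture other than control 1 (0.0535 to 0.179), and without control 1 it stood at -0.26 (1.79e-05). The fit over all 18 libraries also ended the ID8 call and the interaction (adjusted p = 0.260 and 0.160).

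For Ier3 in tumors, 1 library set the picture. Control tumors had 152, 177 and 465.5 CPM and labelled tumors 134, 75.9 and 113 CPM, apart but with control tumor 3 far above the rest. The log2 fold change was -1.28 (SE 0.49, adjusted p = 0.171), and -0.53 without that tumor (SE 0.26, adjusted p = 0.236). DESeq2 and the fit over all 18 libraries called it (adjusted p = 0.0332 and 0.0110).

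Sod2 encodes the mitochondrial manganese superoxide dismutase (ENSMUSG00000006818.5, chr17:13006846-13040063). All 18 libraries lay between 54.8 and 94.4 CPM. None of the 3 comparisons by label called it. The log2 differences were -0.01 (SE 0.10), -0.04 (SE 0.06) and -0.11 (SE 0.15) in HM-1 cells, ID8 cells and tumors.

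Icam1 encodes a surface ligand of the leukocyte integrins LFA-1 and Mac-1 (ENSMUSG00000037405.8, chr9:21015985-21028817). It rose in both lines. HM-1 controls had 23.3, 25.5 and 26.3 CPM and labelled cultures 42.6, 43.3 and 38.8 CPM. ID8 controls had 18.7, 17.6 and 17.2 CPM and labelled cultures 28.3, 32.3 and 28.3 CPM. No value of a control reached any value of its labelled group, and the increases were 0.77 in HM-1 (SE 0.08, adjusted p = 0.000982) and 0.81 in ID8 (SE 0.08, adjusted p = 6.75e-09). The interaction was 0.03 (SE 0.12, adjusted p = 0.906). In tumors, 29.2, 25.7 and 19.7 CPM overlapped with 27.8, 29.3 and 35.1 CPM, and the log2 difference of 0.35 (SE 0.16) was not called (adjusted p = 0.226). The fit over all 18 libraries did call this tumor difference (adjusted p = 0.0291).

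Vcam1 encodes a surface ligand of α4 integrins that is typical of activated endothelium (ENSMUSG00000027962.14, chr3:116109949-116129688). HM-1 controls had 19.5, 21.9 and 23.1 CPM and labelled cultures 7.30, 5.07 and 5.78 CPM. Labelled libraries were far below controls, and Vcam1 fell by 1.79 (SE 0.15, adjusted p = 0.000312). ID8 cells held little Vcam1, with 4.30, 3.68 and 3.38 CPM in controls and 3.92, 3.35 and 3.81 CPM with the label. These overlapped and were not called (0.04, SE 0.15, adjusted p = 0.840), and the interaction between the lines was 1.81 (SE 0.20, adjusted p = 1.30e-05).

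In tumors the order of the Vcam1 groups was the other way round. Control tumors had 28.6, 30.3 and 11.2 CPM and labelled tumors 54.7, 32.8 and 55.2 CPM. Every labelled tumor lay above every control, with control tumor 3 the lowest, but the log2 difference of 1.08 (SE 0.38) was not called (adjusted p = 0.144). It was 0.77 without control tumor 3 (adjusted p = 0.108), and it was called by DESeq2 (adjusted p = 0.0389) and in the fit over all 18 libraries (0.00797). The difference between the effects in tumors and in culture was called, at 2.84 (SE 0.47, adjusted p = 0.00863). Summed endothelial markers were 82.2 to 325 CPM in control tumors, lowest in control tumor 3, and 155 to 248 CPM in labelled tumors, and the 8 markers had a median log2 difference of 0.08. Their part in the Vcam1 levels was not tested.

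Tnfaip2 encodes M-Sec, a protein of membrane protrusions (ENSMUSG00000021281.15, chr12:111442469-111455018). HM-1 controls had 251, 274 and 278 CPM and labelled cultures 390, 389 and 367 CPM. ID8 controls had 150, 152 and 151 CPM and labelled cultures 118, 121 and 128 CPM. The groups lay apart in each line but on opposite sides: Tnfaip2 rose by 0.56 in HM-1 (SE 0.07, adjusted p = 0.00209) and fell by 0.23 in ID8 (SE 0.06, adjusted p = 0.00109). The interaction was -0.80 (SE 0.09, adjusted p = 1.26e-05), and the ID8 call was lost in the fit over all 18 libraries (adjusted p = 0.0604). Control tumors had 304, 336 and 247 CPM and labelled tumors 362, 349 and 341 CPM, without overlap and not called (0.29, SE 0.13, adjusted p = 0.212). The fit over all 18 libraries did call this tumor difference (adjusted p = 0.0151).

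Ptgs2 encodes cyclooxygenase 2, the inducible enzyme of prostaglandin synthesis (ENSMUSG00000032487.8, chr1:150100031-150108227). In HM-1, controls had 60.9, 90.4 and 93.1 CPM and labelled cultures 92.8, 86.6 and 75.7 CPM. These overlapped, with control 1 the lowest, and the log2 difference was 0.10 (SE 0.17, adjusted p = 0.665), or -0.05 without control 1 (adjusted p = 0.419). ID8 controls had 86.4, 82.4 and 74.5 CPM and labelled cultures 38.3, 36.1 and 34.1 CPM. There the groups were far apart, and Ptgs2 fell by 1.09 (SE 0.07, adjusted p = 2.78e-12). The interaction was -1.20 (SE 0.19, adjusted p = 0.000242). Control tumors had 29.5, 28.4 and 55.9 CPM, with control tumor 3 high, and labelled tumors 17.2, 17.2 and 17.4 CPM. All labelled tumors were lower, the log2 difference was -1.11 (SE 0.30) and it was not called (adjusted p = 0.0829). Without control tumor 3 it was -0.66 and called (adjusted p = 0.0170), as it was by DESeq2 (0.00590) and in the fit over all 18 libraries (0.00218).

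Markers of other cells were also summed in labelled and control tumors, where 5.38% of all genes tested were called, 2.2% higher and 3.18% lower. Summed macrophage markers were 1370 to 2210 CPM in control tumors and 707 to 1230 in labelled tumors, with all 10 markers detected and 2 of 10 called lower (Cd68 and Tyrobp). Cd14 lay on the other side (0.33, not called). Summed neutrophil markers were 47.1 to 149 and 9.41 to 15.97 CPM, with 2 of 7 called lower (Csf3r and Il1r2). T and NK cell markers summed to 8.21 to 17.8 and 2.73 to 7.09 CPM, with 1 of 5 tested called lower (Gzmb, -4.31, adjusted p = 0.0257). Fibroblast and pericyte markers ranged from 532 to 12785 CPM in control tumors, lowest in control tumor 3, and from 3518 to 5594 in labelled tumors. Their median log2 difference was -0.02 over 8 markers, with 0 of 8 called. Epithelial and ovarian markers summed to 3900 to 5636 and 3523 to 4378 CPM. Skeletal muscle markers were 1.64 to 122 and 88.5 to 697 CPM, with 0 of 5 called. Keratinocyte markers reached 199.8 CPM in control tumor 3 and stayed at or under 7.49 in the other 5 tumors. These move beside the tumor values of Birc3, Tnfaip3, Vcam1, Ier3 and Ptgs2 and of the other tumor genes named further on, and their part in those values was not tested. In HM-1 control cultures macrophage markers summed to 79.8 to 95.003 CPM with C1qa, C1qb, C1qc and Tyrobp at 0, and neutrophil markers to 1.499 to 1.81 CPM. In labelled HM-1 cultures these sums were 119 to 128 and 0.615 to 1.08 CPM. There Cd68 (-0.51, adjusted p = 0.0188) and Il1r2 (-1.60, adjusted p = 0.00709) were called lower as well, and Mrc1 was called higher (1.64).

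**Figure D3:**
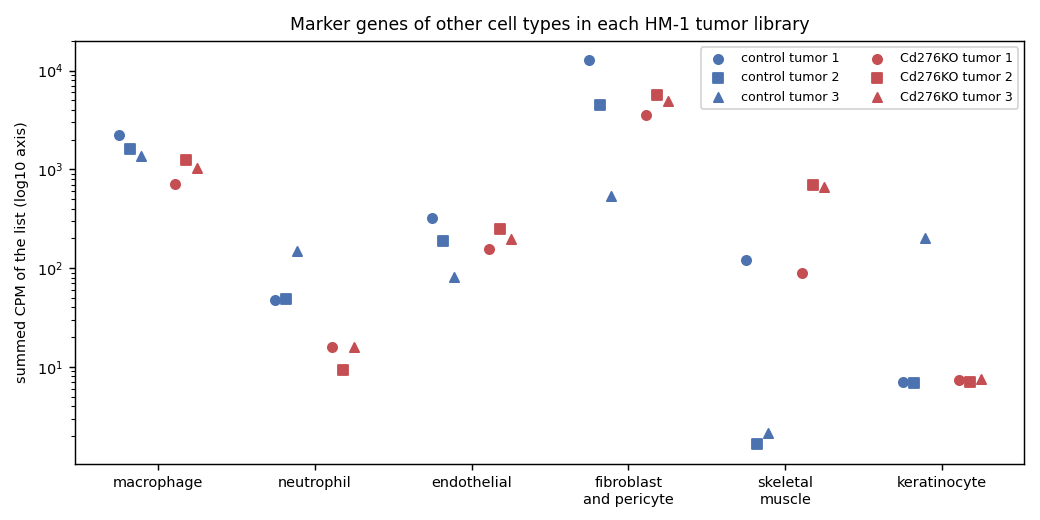
Summed CPM of marker genes (vertical log10 axis) for 6 cell types in each HM-1 tumor library, blue for controls and red for tumors labelled Cd276KO, with the symbol giving the library number. Macrophage and neutrophil sums of the 3 labelled tumors lie under those of the 3 control tumors, and control tumor 3 is lowest for fibroblast and endothelial markers and highest for keratinocyte markers.

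The step from culture to tumor was then described for each label. These comparisons share their libraries with those above, so values are given side by side and no agreement is read from them. In controls, 3 of 10 genes rose (Birc3 by 1.40, Tnfaip3 by 1.07 and Ier3 by 1.51) and 2 fell (Sod2 by 0.61 and Ptgs2 by 1.23), where 41.8% of 14609 genes were called, 25.3% higher and 16.6% lower. Values of tumors and cultures did not overlap for 4 genes that were higher and 2 that were lower in tumors, beside 55.8% of all genes, 37.0% higher and 18.9% lower. In labelled samples all 10 were called, 5 higher and 5 lower, where 75.7% of 14330 genes were called, 41.2% higher and 34.5% lower. Here 5 genes were higher and 4 lower without overlap, beside 78.8% of all genes, 48.4% higher and 30.3% lower. Birc3 rose by 5.55, Vcam1 by 2.84 (SE 0.25), Tnfaip3 by 0.81, Ier3 by 0.64 and Traf1 by 0.53, and Ptgs2 fell by 2.43 (SE 0.09), Sod2 by 0.69, Icam1 by 0.57, Tnfaip2 by 0.26 and Tnip1 by 0.18, the last with overlapping CPM values. The labelled tumors thus held 47.6 ± 12.8 CPM of Vcam1 where labelled cultures held 6.05 ± 1.14 CPM, while control tumors and cultures overlapped.

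**Figure D4:**
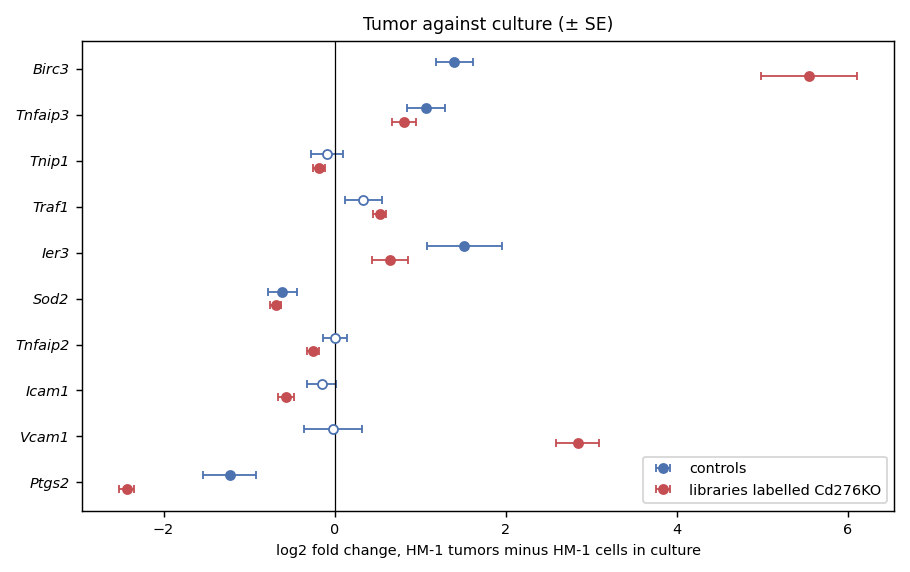
Log2 fold change of each gene from HM-1 cells in culture to HM-1 tumors (horizontal axis, ± SE), blue for controls and red for samples labelled Cd276KO, filled where the adjusted p was under 0.05. Birc3 and Vcam1 lie farthest right in the labelled samples, at 5.55 and 2.84, and Ptgs2 lies left of 0 for both labels.

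Several of these steps rested on small margins. In controls Sod2 was lost as a call without any library other than control tumor 3 (adjusted p = 0.0511 to 0.0775), with upper-quartile scaling (0.0722) and with the replicate number as a block (0.0601). Ier3 was lost without any of the 3 control cultures (adjusted p = 0.0711 to 0.0944), without a filter on low counts (0.103) and with the block (0.0568), and Ptgs2 without control culture 2 or 3 or control tumor 2 (0.0537 to 0.0543). In labelled samples Tnip1 was lost without labelled culture 3, tumor 2 or tumor 3 (adjusted p = 0.0800 to 0.103), in the fit over all 18 libraries (0.193) and with the block (0.0743). Ier3 was lost there without any labelled culture or without labelled tumor 1 (adjusted p = 0.0556 to 0.110), without a filter (0.211) and in the fit over all 18 libraries (0.103). Upper-quartile scaling moved the median of all genes from 0.05 to 0.19 in controls and from 0.08 to 0.25 in labelled samples, and the higher share of the calls in controls from 60.4% to 71.0%. Under it, Tnfaip2 and Tnip1 were not called in labelled samples (adjusted p = 0.231 and 0.878), and Vcam1 and Tnip1 in controls changed sign (0.11 and 0.05).

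The 2 lines also differed before any label. Of the 10 genes, 4 were higher in ID8 controls than in HM-1 controls and 5 were lower, where 58.3% of 13732 genes were called, 28.8% higher and 29.6% lower. For the same 9 genes the values did not overlap, beside 67.2% of all genes, 35.9% higher and 31.4% lower. Tnip1 was higher by 2.04 (SE 0.09), Tnfaip3 by 1.88 (SE 0.17), Birc3 by 1.01 (SE 0.10) and Ier3 by 0.34 (SE 0.12). Besides Traf1, the lower ones in ID8 were Vcam1 (-2.54, SE 0.13), Tnfaip2 (-0.86), Icam1 (-0.53) and Sod2 (-0.39). So the negative regulators A20 and ABIN-1 stood higher in ID8 and both adhesion ligands lower. Ptgs2 was alike (81.1 ± 6.04 and 81.4 ± 17.9 CPM), although without HM-1 control 1 it was called lower in ID8 (-0.21, adjusted p = 0.00500). The Ier3 call was lost without any library other than HM-1 control 1 (adjusted p = 0.0600 to 0.123), with upper-quartile scaling (0.0769) and in the fit over all 18 libraries (0.436), and that of Sod2 without ID8 control 2 or 3 (0.0754 and 0.0558). Line, strain and medium change together here and cannot be told apart.

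Between genes, levels were compared per length, as CPM per kb of exon. Ier3 had the highest mean in 5 of the 6 groups, from 74.7 ± 9.29 in HM-1 controls to 234.2 ± 154 in control tumors. Tnfaip2 was highest in labelled HM-1 cells (76.7 ± 2.57, with Ier3 at 55.8 ± 3.64). In labelled tumors Ier3 (95.2 ± 26.1) overlapped with Tnfaip2 (70.4 ± 2.06), which was the higher one in labelled tumor 2 (70.1 against 67.1). Birc3 was lowest in labelled HM-1 cells (0.0198 ± 0.0172), and Traf1 was lowest in both ID8 groups (0.133 ± 0.0330 and 0.0549 ± 0.00775). In HM-1 controls Tnfaip3 was lowest (1.16 ± 0.253). The lowest members of the tumors were not separated: in control tumors Vcam1 (2.64 ± 1.19, with 1.26 in control tumor 3) overlapped with Tnfaip3 (2.66 ± 0.396), and in labelled tumors Birc3 (1.09 ± 0.423) overlapped with Tnfaip3 (1.30 ± 0.103).

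Some members tracked each other over the 18 libraries. Pearson's r of log2(CPM + 1) was 0.90 for Tnfaip2 with Traf1, 0.86 for Tnfaip3 with Tnip1 and 0.80 for Birc3 with Tnfaip3, and -0.95 for Tnfaip2 with Tnip1. Libraries of a group share line, tissue and label, so these are descriptions over 18 points that fall into 6 groups. Among 11965 protein-coding genes that averaged 1 CPM or more, the closest patterns were those of Glipr2, Vcan and Sh3bp2 for Birc3 (r = 0.974, 0.971 and 0.964), Zfp760, Nfkbie and Prkcd for Tnfaip3 (0.984, 0.972 and 0.970), and Cela1, Ptges and Layn for Traf1 (0.996, 0.996 and 0.995). For Tnip1 they were Sv2a, Padi3 and Pak3 (0.992, 0.987 and 0.986), for Tnfaip2 Tmco3, Zfp36l2 and Pxn (0.987 for each), for Vcam1 Pced1a, Net1 and Rgs2 (0.958, 0.951 and 0.949), and for Icam1 Atp6v0e2, Zfp930 and Togaram1 (0.902, 0.872 and 0.860). For Ier3 they were Ccdc115, Pdlim2 and B3gat3 (0.941, 0.941 and 0.936), for Sod2 Mlkl, Spire2 and Cdc37 (0.943, 0.934 and 0.932), and for Ptgs2 Mcu, Chmp4c and Rragc (0.960, 0.953 and 0.925). Nfkbie encodes an IκB inhibitor, and Ptges the synthase that acts after cyclooxygenase. Ranked by Spearman's rho in place of r, 7 of these 30 genes stayed among the 3 closest.

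Other genes of the pathway were counted by list, against the same backgrounds. Of all genes tested, 27.7% were called in HM-1 cells (11.6% higher, 16.1% lower) and 60.7% in ID8 cells (29.4% higher, 31.3% lower). In tumors 5.38% were called (2.2% higher, 3.18% lower). Of 14 NF-κB subunits and regulators, 1 rose and 7 fell in HM-1 cells (median -0.27), 6 rose and 5 fell in ID8 cells (median 0.04), and 1 fell in tumors (median -0.25). In HM-1 the largest falls were those of Map3k14, the NIK kinase of the noncanonical arm (25.5 ± 5.31 to 11.7 ± 0.802 CPM, -1.08), and of Nfkbie (15.1 ± 0.387 to 7.36 ± 0.550 CPM, -0.99). Nfkbie was also the gene that fell in tumors (31.3 ± 3.37 to 17.6 ± 0.785 CPM, -0.79, adjusted p = 0.0371). In ID8 the largest falls were those of Nfkbiz, a nuclear IκB protein (18.9 ± 0.928 to 5.82 ± 0.833 CPM, -1.62), and Ikbkg, the NEMO subunit of the kinase complex (48.2 ± 1.20 to 22.8 ± 1.44 CPM, adjusted p = 2.18e-11). Nfkbia and Relb, named here after their values were seen, fell in both lines, by 0.53 and 0.86 in HM-1 and by 0.63 and 0.47 in ID8. Ikbkg rose in HM-1 by 0.77, and Map3k14 and Nfkbie rose in ID8 by 0.32 and 0.26.

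Of 18 ligands and receptors, 12 were tested in HM-1 cells (3 higher, 3 lower), 9 in ID8 cells (1 higher, 6 lower) and all 18 in tumors (1 higher, 2 lower). The shares of all genes called were 27.7%, 60.7% and 5.38%. Tnfsf11, which encodes RANKL, went from 4.44 ± 0.298 CPM to 0 counts in labelled HM-1 cultures, at least 89.2-fold lower taking 3 counts for the whole group as the floor, and Tlr2 from 1.04 ± 0.120 CPM to 0 counts, at least 20.96-fold lower. In tumors Tnfsf11 fell by 2.66 (adjusted p = 0.0284) and Il1b, the cytokine IL-1β, by 2.36 (62.5 ± 38.2 to 12.1 ± 2.82 CPM, adjusted p = 0.0405). These stand beside the lower macrophage and neutrophil marker sums of the labelled tumors given above, and the part of other cells was not tested. In ID8 Tnfrsf12a rose by 0.65 and Tlr3 fell by 0.78.

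Of 22 adaptors and ubiquitin partners, 2 rose and 7 fell of 21 tested in HM-1 cells, 2 rose and 8 fell of 22 in ID8 cells, and 3 fell in tumors. The shares of all genes called were 27.7%, 60.7% and 5.38%, with 16.1%, 31.3% and 3.18% lower. Otulin, a linear ubiquitin deubiquitinase, fell by 0.88 in HM-1 cells and by 0.89 in tumors (adjusted p = 0.0489), and Myd88, the adaptor of Toll-like and IL-1 receptors, by 0.78 and 0.70 (adjusted p = 0.0412 in tumors). In ID8 Traf5 fell by 1.16 and Irak1, a kinase below Myd88, by 1.09. Birc2, which encodes cIAP1 and lies 11.6 kb from Birc3, was not called in any of the 3 comparisons (0.01, 0.07 and 0.14, SE 0.10, 0.07 and 0.15). Its levels in HM-1 cells were 17.6 ± 0.0758 and 17.3 ± 1.92 CPM.

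Other NF-κB targets gave 5 higher and 8 lower of 19 tested in HM-1 cells (median -0.25), 3 higher and 13 lower of 16 in ID8 cells (median -1.35), and 1 higher and 7 lower of 25 in tumors (median -0.83). The shares of all genes called were 27.7%, 60.7% and 5.38%, with 16.1%, 31.3% and 3.18% lower. Ccl2, a monocyte chemokine, went from 1030 to 6 reads in HM-1 cells (ratio 154, 95% exact interval 70.6 to 421), and fell by 3.52 in tumors (66.0 ± 64.4 to 5.76 ± 1.27 CPM, adjusted p = 0.0476). Sele, which encodes E-selectin, went from 237 to 3 reads in HM-1 cells (ratio 70.9, interval 24.0 to 346). In ID8 Cxcl5, a neutrophil chemokine, fell by 7.15 (21.6 ± 2.94 to 0.140 ± 0.0114 CPM), and Saa3 went from 59 reads to 0, at least 18.2-fold lower. Csf1, a macrophage growth factor named here after its values were seen, fell in all 3 comparisons, by 0.98 in HM-1 cells, 1.31 in ID8 cells and 1.19 in tumors (adjusted p = 0.0362). Mmp9, a gelatinase, fell by 2.36 in tumors (701 ± 349 to 135 ± 18.3 CPM, adjusted p = 0.0312). The tumor falls of Ccl2, Csf1 and Mmp9 also stand beside the lower macrophage and neutrophil marker sums. The part of other cells in these falls was not tested.

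The partners of Icam1 and Vcam1 were measured as well. Of 7 integrin genes, 3 were tested in HM-1 cells, where Itgb2, the β2 chain that pairs with the ICAM-1 binding α chains, rose by 1.49 (93.7 ± 11.3 to 255.4 ± 0.594 CPM) and Itgb7, a partner of α4, fell by 0.97. Itgb7 also fell in tumors, by 2.58 (131 ± 45.0 to 21.5 ± 2.22 CPM, adjusted p = 0.0192), as did Itgam, the α chain of Mac-1, by 1.93 (adjusted p = 0.0385). Itgam is a leukocyte gene, while Itgb7 also stood at 140 ± 4.15 CPM in HM-1 control cultures and at 69.6 ± 4.97 CPM in labelled ones. Summed macrophage markers (1370 to 2210 CPM in control and 707 to 1230 in labelled tumors) and neutrophil markers (47.1 to 149 and 9.41 to 15.97 CPM) were lower in the labelled tumors. The part of other cells in the falls of Itgb7 and Itgam was not tested. In ID8 Itgb2 fell by 1.10, at 2.73 ± 0.135 and 1.22 ± 0.305 CPM. The shares of all genes called lower were 16.1%, 31.3% and 3.18% in HM-1 cells, ID8 cells and tumors. Of the other immunoglobulin adhesion genes, 2 of 7 tested fell in HM-1 cells, 1 rose and 4 of 6 fell in ID8 cells, and 1 of 8 fell in tumors. L1cam led these, with 17.1 ± 5.49 against 0.137 ± 0.129 CPM in HM-1 cells and 43.9 ± 32.5 against 0.787 ± 0.473 CPM in tumors (adjusted p = 0.0225), and Mcam rose by 2.01 in ID8.

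Beside Ptgs2, 1 prostaglandin gene rose and 3 fell of 9 tested in HM-1 cells, 5 rose and 3 fell of 10 in ID8 cells, and 1 fell of 14 in tumors. The shares of all genes called were 27.7%, 60.7% and 5.38%. Ptgs1, the constitutive cyclooxygenase, went from 391 to 5 reads in HM-1 cells (ratio 70.2, 95% exact interval 29.8 to 218). Pla2g4a, which frees arachidonic acid for both cyclooxygenases and lies 139 kb from Ptgs2, fell by 1.58 in HM-1 cells (37.2 ± 3.31 to 12.1 ± 0.739 CPM) and by 1.20 in tumors (adjusted p = 0.0426), and rose by 0.21 in ID8. In ID8, where Ptgs2 fell, Ptges fell by 1.44 and the prostaglandin transporter gene Slco2a1 rose by 2.50 (2.30 ± 0.378 to 12.3 ± 0.900 CPM). Beside Sod2, 3 antioxidant genes rose and 2 fell of 13 in HM-1 cells, and 5 rose and 3 fell in ID8 cells. In tumors 0 of the 13 were called, with a median log2 difference of -0.28. Sod3, the extracellular superoxide dismutase, fell by 3.47 in HM-1 cells (9.98 ± 1.46 to 0.874 ± 0.184 CPM) and by 0.84 in ID8 cells, and Sod1, the cytosolic one, fell by 0.88 in ID8.

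**Figure D5:**
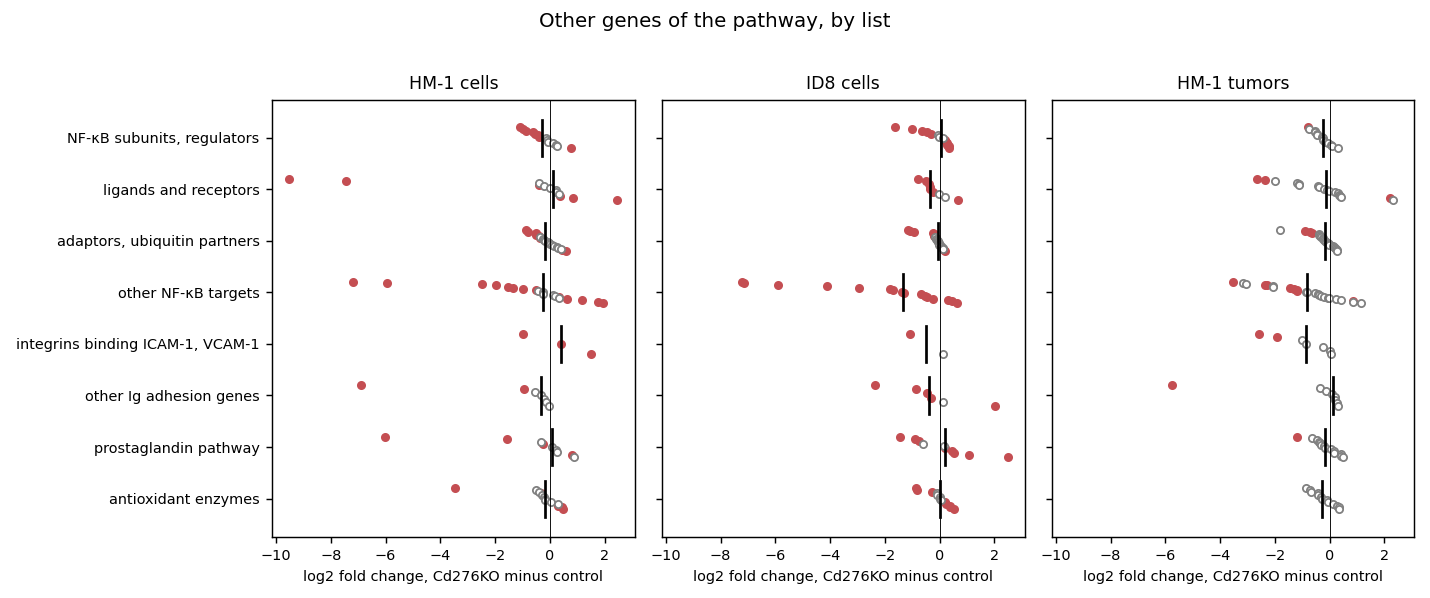
Log2 fold change (horizontal axis, samples labelled Cd276KO minus controls) of each tested gene of 8 lists in HM-1 cells, ID8 cells and HM-1 tumors. Red points had an adjusted p under 0.05, open points did not, and black bars are list medians. The points farthest left belong to genes with few or no reads in the labelled group, where the fitted value depends on the prior count.

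Genes next to the members were read for position. Of 20 nearest protein-coding neighbours, Birc2 is described above, and Yap1 on the other side of Birc3 rose only slightly in ID8 cells (0.18, adjusted p = 0.00650) and was not called in HM-1 cells (0.24, adjusted p = 0.0558) or tumors. Perp, 144 kb from Tnfaip3, went from 1048 reads to 0 in labelled HM-1 cultures, at least 314-fold lower, and rose by 1.14 in ID8. In tumors it had 783 reads in controls, 13.3 ± 19.0 CPM and so very uneven, and 2 with the label. Flot1, which starts 0.307 kb from Ier3, was not called in any of the 3 comparisons, and Anxa6 beside Tnip1 fell by 0.87 in ID8 without a call in HM-1 cells. Phf19 beside Traf1 rose in HM-1 cells (0.33) and in ID8 cells (0.57). In ID8, where 60.7% of all genes were called, Exoc3l4 beside Tnfaip2 (1.07) and Wtap beside Sod2 (0.42) also rose. Extl2 beside Vcam1 (-0.22) and Gpx3 beside Tnip1 (-0.60) fell there. Pla2g4a beside Ptgs2 is described above, and the remaining neighbours were not called or not tested. Antisense or pseudogene models overlap Tnfaip2, Icam1, Vcam1 and Tnip1, with 121, 43, 0 and 19 reads over all 18 libraries, and without a stated strand setting their reads cannot be told apart from those of the members.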

How the data were processed

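RNA of 18 libraries was sequenced after extraction with an RNeasy Mini Kit, per the labels' protocols. The deposited table holds raw read counts per Ensembl gene. Per the submitters' processing notes the authors used Trim Galore, STAR, HTSeq and build GRCm38 (mm10); the version of each tool, the annotation release and whether strand was used are not stated in the labels. Gene symbols, positions and exon lengths came from GENCODE M21, which matched 54723 of 54752 identifiers without their version. Reads without strand can mix a gene with an antisense partner, and reads shared by near-identical copies can be lost.

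Depth was 17349082 to 30959773 counts per library, and intervals and floors (95%, 3 counts) cover counting error only. Levels are CPM of the library total, with the mean ± SD of 3 libraries. Differences were tested with edgeR 4.0.16 (limma 3.58.1, R 4.3.3), using filterByExpr, TMM scaling, a robust quasi-likelihood fit to the groups compared and Benjamini-Hochberg adjustment over all genes tested, checked on simulated data. The SE was obtained as the absolute log2 fold change over the root of the F statistic. Interactions were fitted over the 4 groups concerned. Alternatives were DESeq2 1.42.0, relative log expression and upper-quartile scaling, no filter, a fit over all 18 libraries, the replicate number as a block and leaving out each library.

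The 10 genes, the other gene lists and the markers were chosen with earlier results of these data known. Of each list, the 2 called genes with the largest change per comparison were named, and others are marked as named after their values were seen. Same-numbered libraries did not deviate together in HM-1 cells or tumors. In ID8 cells each library correlated best with its own number, although 1 of the 3 correlations was under 0.1. The main test was unpaired throughout, and the replicate block gives the paired form. In ID8 cells the block called 8329 of 12932 genes and 8 members, beside 7849 genes and 8 members without it.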

Additional observations from a re-analysis of the deposited data

Results flagged for a closer look

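The effect of the label Cd276KO differed between groups for 7 combinations of gene and comparison, by edgeR's interaction test with Benjamini-Hochberg adjustment. Between HM-1 tumors and HM-1 cells in culture it differed for Birc3 by 4.15 on the log2 scale (SE 0.64, adjusted p = 0.00624), with a fall of 6.03 in culture and of 1.90 in tumors. For Vcam1 the difference was 2.84 (SE 0.47, adjusted p = 0.00863), from -1.79 in culture to 1.08, not called, in tumors. Both differences were called in all 12 fits that left out 1 library. Between ID8 and HM-1 cells the effect differed for Birc3 by 5.48 (adjusted p = 7.32e-08), where Birc3 fell in both lines, and for Vcam1 by 1.81 (adjusted p = 1.30e-05), which fell in HM-1 cells. Ier3 differed by 0.90 (adjusted p = 0.000124) and Tnfaip2 by -0.80 (adjusted p = 1.26e-05), each called in opposite directions in the 2 lines. Ptgs2 differed by -1.20 (adjusted p = 0.000242), with its fall in ID8 cells. These 5 differences were called in all 12 fits that left out 1 library.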

How the results depend on the processing

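Of the 60 values of the 10 genes under 6 other settings, 57 in HM-1 cells, 55 in ID8 cells and 48 in tumors kept their direction and side of the threshold. Of 16526 genes tested, the fit over all 18 libraries called 4260 genes and 4 members in ID8 cells, and 4001 and 9 (all but Sod2) in tumors. It called 9974 genes for control tumor minus culture and 848 for the interaction of tumors with cells. DESeq2 called 2270 genes and 5 members in tumors and 898 genes for that interaction. The cause of these shifts was not tested.

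Same-numbered libraries had correlations of 0.00941 to 0.0129 in HM-1 cells, 0.0686 to 0.357 in ID8 cells, where each library correlated best with its own number, and -0.676 to 0.0511 in tumors. With the replicate block edgeR called 0 genes and 0 members in tumors (2726 of 15345 genes and 6 members at an unadjusted p under 0.05). For control tumor minus culture it called 4694 of 14609 genes and 3 members. The block also ended the HM-1 call of Ier3 (adjusted p = 0.0666).

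Leaving out 1 library gave 1725 to 7491 genes and 6 to 8 members called in HM-1 cells, 7115 to 7877 and 7 to 8 in ID8 cells, and 0 to 1685 and 0 to 3 in tumors. In HM-1 cells the most came without control 1 (7491) and the fewest without a labelled culture (1725 to 1815). In tumors edgeR called 0 genes without labelled tumor 2 or 3 (2851 and 2410 at an unadjusted p under 0.05, with 4 and 3 members), 1 without labelled tumor 1, 353 and 263 without control tumor 1 or 2 and 1685 without control tumor 3. The ranges were 4336 to 7072 genes and 2 to 5 members for control tumor minus culture, 10113 to 11839 and 8 to 9 for labelled tumor minus culture, and 6882 to 10604 and 7 to 10 for ID8 minus HM-1. For the interactions they were 225 to 913 genes and 2 members (tumors), with 913 without control tumor 3, and 4941 to 7143 genes and 5 to 6 members (ID8).

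Apart from Ptgs2 in ID8 minus HM-1, signs turned only for differences not called in any of these fits. For control tumor minus culture, Tnfaip2 was at -0.0203 with DESeq2, -0.0215 in the fit over all 18 libraries, -0.129 without a filter and -0.00564 with the block, and Vcam1 and Tnip1 were at 0.108 and 0.0491 under upper-quartile scaling, which also put Sod2 at 0.0143 in the ID8 interaction. Leaving out 1 library moved Sod2 and Ptgs2 between -0.0702 and 0.0833 and between -0.0548 and 0.202 in HM-1 cells, Vcam1 and Sod2 between -0.0212 and 0.136 and between -0.0821 and 0.00769 in ID8 cells, and Sod2 between -0.196 and 0.0631 in tumors. It moved Tnfaip2 and Vcam1 between -0.135 and 0.0859 and between -0.294 and 0.282 for control tumor minus culture, and Ptgs2 between -0.210 and 0.0495 for ID8 minus HM-1 (called without HM-1 control 1). In the interactions it moved Tnip1 and Sod2 between -0.222 and 0.0811 and between -0.195 and 0.0257 for tumors, and Icam1 and Sod2 between -0.0494 and 0.0715 and between -0.128 and 0.0119 for ID8.

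Depth limits Birc3 in labelled HM-1 cultures and Traf1 in ID8 cells, where few reads were counted.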
